A study of Mus musculus with 4 samples.

Results

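Bipolar, amacrine and ganglion cells are the neurons that stand behind the photoreceptors, and 32 genes that mark them were followed in whole mouse retina after loss of the rod transcription factor Nrl in the adult. The genes were taken from a fixed list of markers by class, 9 for bipolar, 12 for amacrine and 11 for ganglion cells. Of these, 31 were measured among 19421 genes, each by 1 probe set, and Pou4f2, a ganglion cell transcription factor, was not analysed here. Knockout mice were Nrl flox/flox and carried CAG-CreERTM, and control mice were Nrl flox/+ with that same transgene, so controls kept an intact allele. CreERTM is a recombinase that 4-hydroxytamoxifen switches on, and the CAG promoter is active in most cell types, so recombination was not limited to rods by design. Every mouse, control or not, was given 4-hydroxytamoxifen on each of postnatal days 42 to 44, and tissue was taken on day 63, which is 19 days after the last injection. There were 2 knockout and 2 control arrays, each of RNA pooled from 4 retinas of 2 animals.

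Photoreceptors signal to bipolar cells, which pass the signal on to ganglion cells, whose axons form the optic nerve. Rod bipolar and ON cone bipolar cells depolarise to light, while OFF cone bipolar cells hyperpolarise. Amacrine cells, most of which release GABA or glycine, shape the transfer to ganglion cells. Nrl itself is a factor of rods, and the comparison asks how the marker levels of these downstream neurons stood once it was deleted.

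None of the measured markers of the inner neurons passed the test. Of the 31 measured genes 0 were called at an adjusted p under 0.05 (limma, Benjamini-Hochberg adjustment over all genes), while 0.201% of all genes were. An unadjusted p under 0.05 was reached by 3 of them, or 9.68%, against 7.07% of all genes. These were Tacr3 and Gad1, with the lower signal in the knockout, and Pou4f3, with the higher signal there. Fold changes on the log2 scale, knockout minus control, ran from −0.41 to 0.43. For each of the 31 the 95% interval stayed within 2-fold in either direction, as did that of 19189 of the 19421 genes. The outermost bounds among the 31 were 61.6% and 163% of the control signal. A p above the threshold does not show that a level was the same.

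**Figure D1:**
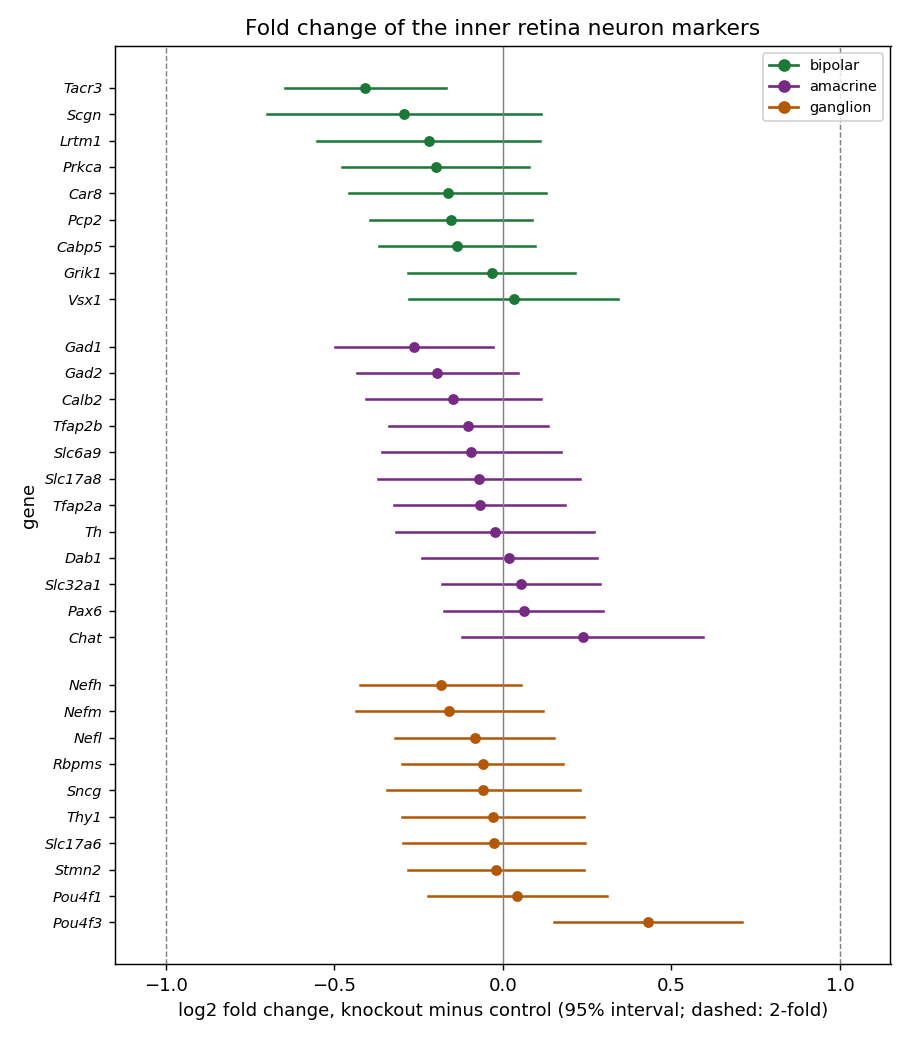
Log2 fold change (knockout minus control, x axis) of the 31 measured genes with the 95% interval from limma, for bipolar (green), amacrine (purple) and ganglion (orange) markers (y axis). No interval reaches the dashed lines at 2-fold, and those of Tacr3, Gad1 and Pou4f3 leave out 0.

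In whole retina, fewer cells of a type and less RNA per cell cannot be told apart. The files hold log2 signals with no detection call. The knockout arrays gave 7.57 and 7.05 for Nrl and the control arrays 8.21 and 8.13, a fold change of −0.86 (log2, SE 0.18, adjusted p = 0.289 by limma). Both knockout arrays were below both controls, and whether this probe set lies in the deleted part of the gene is not stated. Gnat1, a transducin subunit of rods, stood at 9.46 and 9.76 on knockout arrays against 12.65 and 12.58 on controls. Replicates 1 and 2 differed in sex in both genotypes: Xist, which is expressed from the inactive X, read 4.07 and 10.66 in the knockout and 4.09 and 10.47 in the control, replicate 1 before replicate 2.

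Bipolar markers lay slightly lower in the knockout, without any of them passing the test. Of 9 genes 8 had a negative log2 fold change, and the median was −0.16, where the median of all genes was −0.00262. In replicate 1 the median difference was −0.19 and in replicate 2 it was −0.14. Below 0 in both replicates lay 7 of the 9, or 77.8%, against 28.3% of all genes. Both knockout arrays were below both control arrays for 4 of the 9, Prkca, Pcp2, Cabp5 and Tacr3, and above them for 0. Of all genes, 18.4% were separated in the first way and 17% in the second. The size depended on the control arrays kept: the median was −0.27 without control replicate 2 and −0.091 without control replicate 1.

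Tacr3 encodes the neurokinin receptor found on OFF cone bipolar cells, and it had the lowest fold change of all members. Its knockout arrays read 5.50 and 5.56, its control arrays 5.96 and 5.91. The groups did not overlap, and the fold change of −0.41 (log2, SE 0.098) was larger than the gap between the arrays of either group. Its 95% interval ran from −0.65 to −0.17, the adjusted p was 0.399 by limma, and the knockout signal was 75.4% of control. Tacr3 is a gene of low signal, among the 6 measured members in the lower 50% of all genes by mean signal. The others are Chat, Slc17a8, Th, Pou4f1 and Pou4f3.

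Among markers of rod bipolar cells, Prkca, which encodes protein kinase C α, read 8.32 and 8.29 on knockout arrays against 8.61 and 8.40 on controls, a fold change of −0.20 (log2, SE 0.11). Cabp5, a calcium-binding protein of rod bipolar and some cone bipolar cells, read 9.06 and 9.08 against 9.20 and 9.22 in control, a fold change of −0.14 (log2, SE 0.096). Pcp2, a regulator of G protein signalling in ON bipolar cells, read 7.77 and 7.77 against 7.97 and 7.88 in control. In all 3 the knockout arrays were the lower pair, at 87.1%, 91.0% and 89.8% of the control signal, with adjusted p of 0.815, 0.857 and 0.840 by limma. Car8, a carbonic anhydrase-related protein, had a fold change of −0.16 (log2, SE 0.12) and overlapping groups.

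Scgn, Grik1, Vsx1 and Lrtm1, the remaining bipolar markers, overlapped between genotypes. Scgn, the calcium sensor secretagogin, read 7.87 and 7.65 in the knockout and 8.26 and 7.84 in the control. The gap of 0.43 between its control arrays exceeded its fold change of −0.29 (log2, SE 0.17), which was −0.080 without control replicate 1. Grik1, a kainate receptor subunit of OFF cone bipolar cells, stood at −0.033 (log2, SE 0.10). Vsx1, a homeobox factor of cone bipolar cells, was the one bipolar marker above 0, at 0.033 (log2, SE 0.13), from knockout arrays at 6.41 and 6.12 and controls at 6.21 and 6.25. Its knockout arrays lay on either side of the controls. Lrtm1, a leucine-rich repeat membrane protein, read 8.57 and 8.29 in the knockout and 8.75 and 8.55 in the control. For Prkca, Car8, Scgn and Lrtm1 replicate 1 was above replicate 2 in both genotypes.

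**Figure D2:**
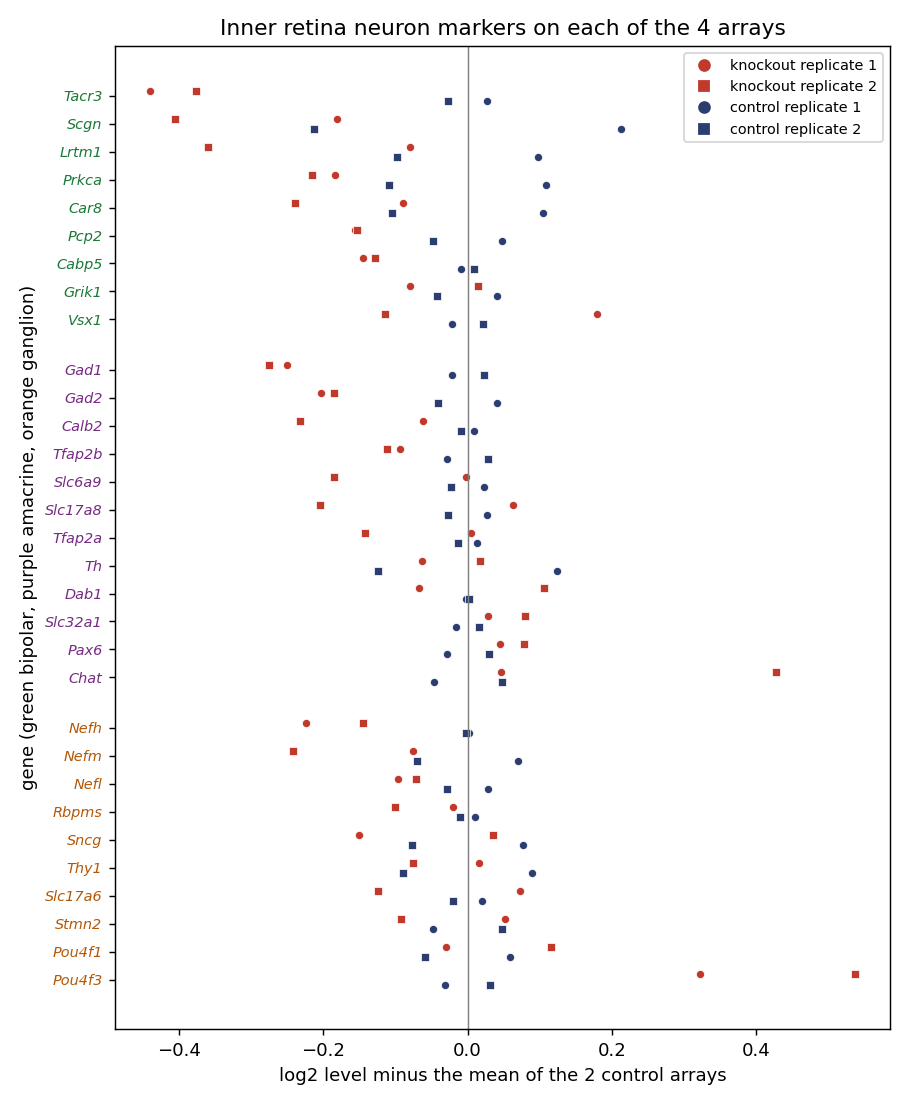
Log2 level on each array minus the mean of the 2 control arrays (x axis) for each measured gene (y axis), with knockout arrays in red drawn above control arrays in blue, circles for replicate 1 and squares for replicate 2. The knockout arrays of Tacr3 and Gad1 lie left of the controls and those of Pou4f3 right of them, while 16 of the 31 genes overlap.

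Promoter sequences are shown for 4 of the genes, because Nrl and its partners in photoreceptors bind short DNA elements. Nrl binds elements that contain TGCTGA, and the homeobox factors Crx and Otx2, the second of which bipolar cells also make, bind TAATCC. RefSeq promoters of GRCm38.p6, running from 250 bases before to 50 after a gene's start, were found for 22 of the 32 genes, 32 promoters in all. The promoter set that was counted left out a whole chromosome. On either strand TGCTGA occurred in 9 of the 32, or 28.1%, against 19.5% of the 32851 promoters in that set. TAATCC occurred in 3, or 9.38%, against 7.06% of the set. Tacr3 and Gad1 are shown as members with an unadjusted p under 0.05, and Lrtm1 and Cabp5 because they and Gad1 hold TAATCC. Pou4f3, the other member under that p, had no promoter in the set. The windows are chr3:134828757-134829056 for Tacr3, chr2:70561879-70562178 for Gad1, chr14:29017958-29018257 for Lrtm1 and chr7:13397905-13398204 for Cabp5, each on the plus strand. Capitals mark a match to either motif, read as TCAGCA or GGATTA where it is on the opposite strand.
Tacr3: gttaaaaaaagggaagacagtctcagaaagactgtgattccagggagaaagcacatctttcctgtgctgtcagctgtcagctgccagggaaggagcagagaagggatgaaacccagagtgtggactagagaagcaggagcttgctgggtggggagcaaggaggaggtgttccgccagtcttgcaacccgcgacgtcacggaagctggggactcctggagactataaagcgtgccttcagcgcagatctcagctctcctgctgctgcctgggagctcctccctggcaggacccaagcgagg
Gad1: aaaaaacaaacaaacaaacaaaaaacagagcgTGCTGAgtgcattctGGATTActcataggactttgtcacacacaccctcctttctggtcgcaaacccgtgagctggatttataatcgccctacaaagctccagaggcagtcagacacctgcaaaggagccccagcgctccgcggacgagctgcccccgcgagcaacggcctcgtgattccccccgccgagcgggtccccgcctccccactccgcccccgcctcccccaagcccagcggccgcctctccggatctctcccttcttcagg
Lrtm1: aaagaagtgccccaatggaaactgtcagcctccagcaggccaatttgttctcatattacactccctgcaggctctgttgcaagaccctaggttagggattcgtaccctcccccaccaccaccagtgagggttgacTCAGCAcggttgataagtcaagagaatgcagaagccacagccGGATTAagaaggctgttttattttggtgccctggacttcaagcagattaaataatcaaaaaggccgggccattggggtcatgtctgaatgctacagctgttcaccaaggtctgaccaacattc
Cabp5: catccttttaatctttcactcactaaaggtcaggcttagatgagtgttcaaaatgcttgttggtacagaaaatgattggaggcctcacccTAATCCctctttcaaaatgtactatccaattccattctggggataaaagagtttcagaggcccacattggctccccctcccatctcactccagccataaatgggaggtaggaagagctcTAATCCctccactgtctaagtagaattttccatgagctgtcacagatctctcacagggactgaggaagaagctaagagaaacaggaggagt

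The Tacr3 window held neither motif, those of Gad1 and Lrtm1 held 1 of each, not overlapping, and that of Cabp5 held TAATCC 2 times. A match is one of letters only.

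Amacrine markers had a median log2 fold change of −0.070, with 8 of 12 below 0. Both knockout arrays were below both controls for 4 of the 12 and above them for 2, against 18.4% and 17% of all genes. The median was −0.13 without knockout replicate 1 and −0.032 without knockout replicate 2. Both enzymes that make GABA had lower signal on both knockout arrays, and neither passed the test. Gad1, one of these glutamate decarboxylases, read 7.33 and 7.30 in the knockout and 7.56 and 7.60 in the control. Its fold change of −0.26 (log2, SE 0.096, 95% interval −0.50 to −0.029) exceeded the gap within either group, and its adjusted p was 0.653 by limma, at 83.3% of the control signal. Gad2, the other, read 7.21 and 7.23 on knockout arrays against 7.45 and 7.37 on controls, with a fold change of −0.19 (log2, SE 0.098). Slc32a1, which loads GABA and glycine into synaptic vesicles, had both knockout arrays above both controls, at 7.27 and 7.32 against 7.23 and 7.26, and a fold change of 0.054 (log2, SE 0.097). Whether the probes of related genes share hybridisation was not tested.

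Markers tied to glycinergic amacrine cells overlapped between genotypes. Slc6a9, a glycine transporter, stood at −0.094 (log2, SE 0.11), or −0.0022 without knockout replicate 2, and Dab1, an adaptor of Reelin signalling found in AII amacrine cells, at 0.020 (SE 0.11). Slc17a8, a vesicular glutamate transporter, stood at −0.071 (SE 0.12). Of the transcription factors, Pax6, which amacrine, ganglion and horizontal cells share, had both knockout arrays above both controls, with a fold change of 0.061 (log2, SE 0.097). The AP-2 factor Tfap2b had both knockout arrays below both controls, at −0.10 (log2, SE 0.097), and its relative Tfap2a overlapped, at −0.069 (SE 0.10).

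Chat, the acetylcholine-making enzyme of starburst amacrine cells, had the highest fold change of this class. It read 4.72 and 5.10 in the knockout and 4.63 and 4.72 in the control, and 1 knockout array alone stood apart. The fold change was 0.24 (log2, SE 0.15, adjusted p = 0.831 by limma). Th, the enzyme that starts dopamine synthesis, read 5.74 and 5.82 in the knockout, between the control values of 5.93 and 5.68. Calb2, which encodes calretinin in amacrine and ganglion cells, stood at −0.15 (log2, SE 0.11), with both knockout arrays the lower pair.

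Ganglion markers had a median log2 fold change of −0.044, with 8 of 10 below 0. The median was −0.092 without control replicate 2, −0.084 without knockout replicate 1, −0.025 without knockout replicate 2 and −0.027 without control replicate 1. Pou4f3, a POU-domain factor of some ganglion cells, stood apart from the rest of its class. Its knockout arrays read 4.87 and 5.08, its control arrays 4.51 and 4.58, without overlap. The fold change of 0.43 (log2, SE 0.11, 95% interval 0.15 to 0.71) was the highest of all members, with an adjusted p of 0.483 by limma, and its signal was among the lower 50% of genes. Its relative Pou4f1 read 5.84 and 5.98 in the knockout and 5.93 and 5.81 in the control, with overlapping groups and a fold change of 0.043 (log2, SE 0.11).

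The 3 neurofilament genes, which encode the filaments of large axons, each had both knockout arrays below both controls, none passing the test. Of the 10 measured ganglion markers 4, or 40%, were separated in this way, as were 18.4% of all genes. Nefh, the heavy subunit and the lowest of the class, read 7.07 and 7.15 in the knockout against 7.29 and 7.29 in the control, a fold change of −0.18 (log2, SE 0.098, adjusted p = 0.792 by limma). Nefm, the medium subunit, read 9.01 and 8.85 against 9.16 and 9.02 in control, and its separation was narrow, since knockout replicate 1 nearly met control replicate 2. Nefl, the light subunit, stood at −0.084 (log2, SE 0.097). It read 8.63 and 8.66 in the knockout against 8.76 and 8.70 in control, also a narrow separation.

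Genes used to mark ganglion cells as a class lay nearer 0. Rbpms, an RNA-binding protein of ganglion cells, read 6.70 and 6.62 in the knockout and 6.73 and 6.71 in the control, a fold change of −0.060 (log2, SE 0.098, 95% interval −0.30 to 0.18). Slc17a6, their vesicular glutamate transporter, stood at −0.026 (log2, SE 0.11) and Thy1, a surface glycoprotein, at −0.030 (SE 0.11). Sncg, which encodes γ-synuclein, stood at −0.058 (log2, SE 0.12) and Stmn2, a regulator of microtubules, at −0.020 (SE 0.11). The groups overlapped in all of these but Rbpms, whose knockout arrays were the lower pair.

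Over the 3 classes, 24 of 31 genes lay below 0, or 77.4%, against 50.9% of all genes. Both knockout arrays were below both controls in 12, or 38.7%, and above them in 3, or 9.68%, to be read against the 18.4% and 17% of all genes. The genes share cells and the same 4 pools, so they are not independent, and no test was made over them. In 17 genes, or 54.8%, the difference was negative in both replicates, against 28.3% of all genes. It was positive in both in 4 of the 31, and in 5106 of all 19421 genes. The median size of the difference, without its sign, was 0.0938 for the 31 members and 0.0919 for all genes. The mean difference between replicate 1 and replicate 2, without its sign, exceeded that between genotypes in 13 of the 31, or 41.9%, against 51.1% of all genes.

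**Figure D3:**
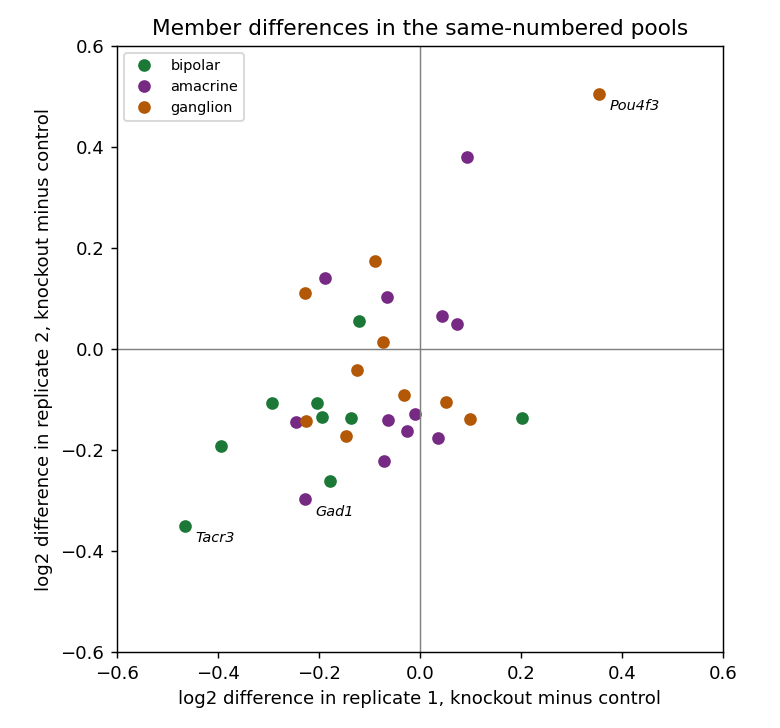
Log2 difference of knockout minus control in replicate 1 (x axis) and replicate 2 (y axis) for the 31 genes, coloured by class. At lower left lie the 17 genes below 0 in both, among them Tacr3 and Gad1, and at upper right the 4 above 0 in both, with Pou4f3 at 0.35 and 0.51.

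Further neuron genes, pooled over 6 lists, were split evenly around 0, though some single lists were not. Transmitter receptors had 19 of 26 genes below 0, while injury and presynaptic genes each had 9 of 14 above. In lists of other bipolar, amacrine and ganglion genes, transmitter receptors, presynaptic genes and ganglion injury genes, 124 were measured, 0 were called, 61 lay above 0 and 63 below. An unadjusted p under 0.05 was reached by 9, or 7.26%. The 24 other bipolar genes had a median of 0.013 (log2), against −0.16 for the 9 members, and that difference between lists was not tested. Rgs11, which speeds the shutoff of the ON bipolar cascade, read 6.19 and 6.28 in the knockout against 5.80 and 5.77 in the control, a fold change of 0.45 (log2, SE 0.099, adjusted p = 0.317 by limma). Kcng4, a subunit of potassium channels, stood at 0.56 (SE 0.17) and Strip2 at −0.34 (SE 0.11).

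The 26 other amacrine genes had 13 on either side of 0. Penk, the enkephalin precursor, stood at −0.29 (log2, SE 0.12, adjusted p = 0.722 by limma), the neuropeptide gene Vip at −0.26 (SE 0.12) and Ddc, which makes dopamine, at 0.16 (SE 0.11). Of the 22 other ganglion genes 12 lay above 0. Jam2, an adhesion molecule, stood at −0.19 (log2, SE 0.11, adjusted p = 0.797 by limma), Chrnb3, a nicotinic receptor subunit, at −0.29 (SE 0.16) and Atoh7, which specifies ganglion cells in development, at 0.16 (SE 0.11).

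Of 14 genes of the ganglion cell injury response 0 were called. An unadjusted p under 0.05 was reached by 3, or 21.4%, against 7.07% of all genes. Above 0 lay 9, or 64.3%, against 49% of all genes. Atf3, a transcription factor induced by stress, read 6.37 and 6.59 in the knockout and 5.87 and 6.03 in the control, without overlap, a fold change of 0.54 (log2, SE 0.12, adjusted p = 0.358 by limma). Gadd45a, a DNA damage response gene, stood at −0.33 (SE 0.11). The cells these signals came from were not tested.

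Transmitter receptors had a median of −0.063 (log2), with 19 of 26 genes below 0. The AMPA receptor subunit Gria1 stood at 0.26 (SE 0.099, adjusted p = 0.666 by limma), and the glycine receptor subunits Glra1 and Glra3 at 0.36 (SE 0.15) and −0.34 (SE 0.30). Presynaptic genes had a median of 0.036 (log2) over 14 genes. Syt1, the calcium sensor of vesicle release, stood at 0.28 (SE 0.11, adjusted p = 0.656 by limma) and the active zone gene Rims1 at −0.16 (SE 0.10).

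Markers of other retinal cells on the same arrays included genes that passed the test, which 0.201% of all genes did. Of 11 rod markers Gnat1, Reep6 and Rom1 fell, with a median of −0.76 (log2) over the list. Of 10 cone markers Gnat2 and Gnb3 rose, while 6 of the 10 lay below 0 and the median was −0.13. The lowest of them, the cone opsin gene Opn1sw, stood at −0.52 (log2, SE 0.11, adjusted p = 0.281 by limma). Whether the Gnb3 signal came from cones alone was not tested. Of 12 microglia markers Ctss and Tyrobp rose, 10 lay above 0 and the median was 0.48, and the lowest, Tmem119, stood at −0.40 (log2, SE 0.097, adjusted p = 0.403 by limma). Opn1sw and Tmem119 were chosen after their values were known. The mean log2 level of the microglia markers was 6.36 and 6.38 on knockout arrays, against 5.79 and 5.90 on controls. Of 7 horizontal cell markers, which mark the remaining second-order neurons, 0 were called, and the median was −0.19. Below 0 lay 5 of them, or 71.4%, against 50.9% of all genes. An unadjusted p under 0.05 was reached by 1, or 14.3%, against 7.07% of all genes. Among Müller glia, astrocyte, vascular, retinal pigment epithelium, lens and erythrocyte markers limma called 0. In these lists 4 of 11 Müller glia, 1 of 5 astrocyte and 1 of 7 lens markers had an unadjusted p under 0.05. The shares were 36.4%, 20% and 14.3%, against 7.07% of all genes. Of the 8 vascular, 8 pigment epithelium and 1 erythrocyte markers 0 reached it. The part of these cells in the values of the inner neuron genes was not tested.

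**Figure D4:**
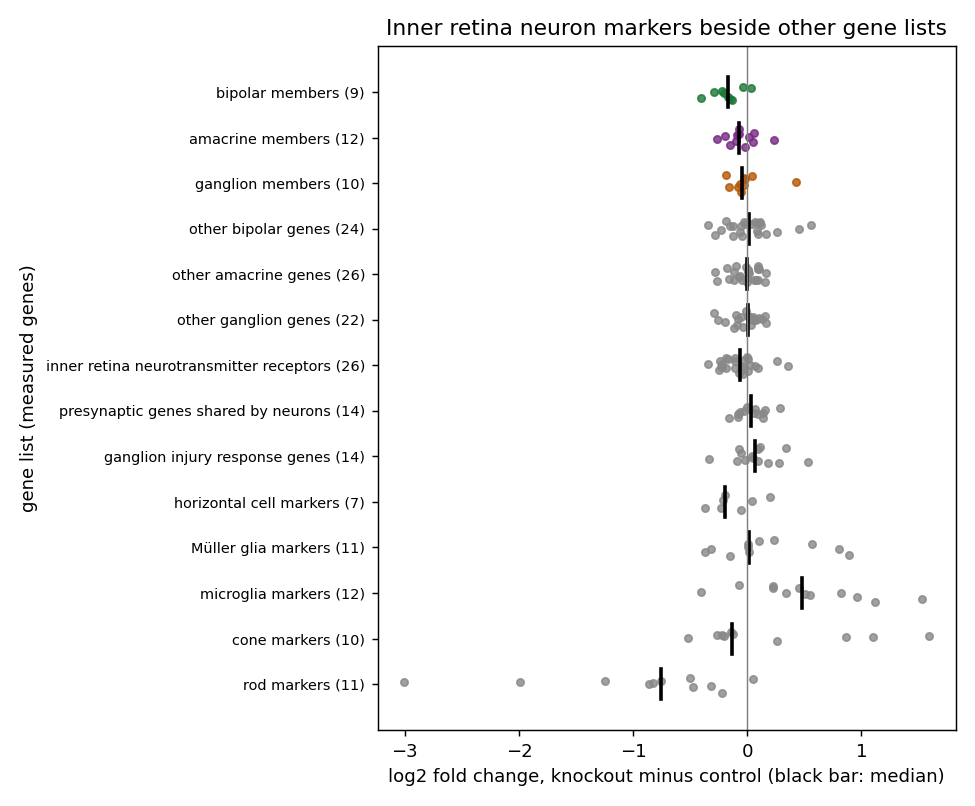
Log2 fold change (knockout minus control, x axis) of each measured gene, by list (y axis, with the number of genes), with black bars at the medians; height within a row only separates points. The inner neuron markers lie between −0.41 and 0.43, while rod markers reach −3.01 and microglia markers 1.53.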

How the data were processed

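The deposited values of the 4 arrays were taken as log2 probe set signals from their range, which no header or label states. Per the submitters' processing notes, affy and limma were used; their settings, and the background correction and normalization, are not stated. The number of arrays limits the precision.

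The platform annotation gave 20877 of 21897 probe sets 1 gene symbol, 175 several and 845 none. A gene was represented by its single-symbol probe set with the highest mean, which left 19421 genes, unfiltered. Genotypes were compared with limma 3.58.1 (R 4.3.3; two-sided, genotype as the only term, p-values adjusted over all genes by Benjamini-Hochberg, threshold 0.05). The 95% intervals are per gene and moderated. The fit was tested on simulated data without a sex or replicate effect. That test does not cover the sex difference between replicates found here. The labels call the pools biological replicates. An exact permutation of 2 against 2 arrays cannot give a p below 0.333.

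All members are described, with every array for those at an unadjusted p under 0.05 or farthest from 0 in their class. Of each other neuron list, the 2 genes of smallest p and the farthest in either direction are named. Members and lists were chosen with earlier results of these data known. Alternatives were quantile normalization, a filter at the 50th percentile of mean signal, the mean of all probe sets of a gene, a robust variance trend, a replicate block and leaving out each array.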

Additional observations from a re-analysis of the deposited data

How the results depend on the processing

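Members called stayed at 0 under every alternative, with limma throughout, and the smallest adjusted p of a member ran from 0.318 to 0.894. The number of genes called in all, 39, was 89 with the filter on low signal, 138 with the robust variance trend and 8 with the replicate block, and it ran from 0 to 11 when 1 array was left out. The 0 arose without control replicate 1 and without control replicate 2, where 1355 and 1328 genes had an unadjusted p under 0.05. An array left alone in its group is assumed to vary like the other group. Since the replicates differed in sex in both genotypes, the replicate block also takes up sex, for which the main fit had no term. This block brought 4 members under an unadjusted p of 0.05 in place of 3. The deviations of same-numbered arrays correlated at r = 0.239 over genes, and the labels do not say that numbers pair the pools. The bipolar median log2 fold change ran from −0.27 to −0.091 with 1 array left out, the amacrine median from −0.13 to −0.032 and the ganglion median from −0.092 to −0.025. The ganglion median was −0.027 under quantile normalization and −0.059 with the filter, which removes low-signal genes. The filter, the mean of all probe sets, the robust variance trend and the replicate block left a member's fold change unchanged by design. Only quantile normalization and leaving out an array could move it. Of 273 member values under all alternatives, those fixed ones included, 256 kept their direction. The other 17, in 11 members, all came from leaving out 1 array. Their ranges were Vsx1 −0.11 to 0.18, Grik1 −0.079 to 0.014, Tfap2a −0.14 to 0.0044, Slc17a8 −0.20 to 0.062, Th −0.15 to 0.10, Dab1 −0.067 to 0.11, Pou4f1 −0.030 to 0.12, Sncg −0.15 to 0.036, Slc17a6 −0.12 to 0.073, Thy1 −0.12 to 0.060 and Stmn2 −0.092 to 0.051. A further 12 members kept their direction but moved by over 1.5 times without some array: Calb2 −0.23 to −0.062, Car8 −0.27 to −0.060, Chat 0.047 to 0.43, Lrtm1 −0.36 to −0.080, Nefl −0.11 to −0.055, Nefm −0.24 to −0.076, Pax6 0.032 to 0.090, Prkca −0.31 to −0.091, Rbpms −0.10 to −0.020, Scgn −0.51 to −0.080, Slc32a1 0.028 to 0.080 and Slc6a9 −0.19 to −0.0022. The remaining 8, Cabp5, Gad1, Gad2, Nefh, Pcp2, Pou4f3, Tacr3 and Tfap2b, stayed within 1.5 times. The cause was not tested.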
